A study of Brassica rapa with 6 samples.

Results

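Arabinogalactan proteins were followed between the petiole, the stalk of a leaf, and the leaf of baby Chinese cabbage (*Brassica rapa*). The family was taken as every locus of the deposited gene table that covers a single annotated gene and whose description contains the word arabinogalactan, which gave 73 of 49200 loci. By their descriptions 34 of them are fasciclin-like, 22 are classical or non-classical, 3 are lysine-rich and 14 are peptides, under 39 distinct names on all 10 chromosomes. Ribosomal RNA was removed from total RNA, strand-specific libraries were built, and 3 petiole and 3 leaf libraries were sequenced. All plants belonged to an inbred line, received no treatment and were sampled at maturity, and the study asked which transcripts differ between these organs. Replicates 1 to 3 of an organ are not said to come from separate plants, so p-values given here reflect the spread among these libraries only, and that spread may be technical.

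Arabinogalactan proteins are secreted proteins of the plant cell surface and wall whose backbone is rich in hydroxyproline. Large branched sugar chains of galactose and arabinose are attached to the hydroxyprolines, and many members are held at the plasma membrane by a glycosylphosphatidylinositol (GPI) lipid anchor. Fasciclin-like members (FLA) carry in addition a fasciclin domain, which is an adhesion domain shared with animal proteins. Classical members (AGP) consist mostly of the glycosylated stretch, lysine-rich members interrupt it with a short basic stretch, and the arabinogalactan peptides have a very short mature backbone. In Arabidopsis the family is known for roles in cell expansion, secondary walls, pollen and root hairs. The roles given below are those of the Arabidopsis genes of the same name.

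The RNA of the family was far more abundant in the petiole. Summed over all 73 loci, the normalised counts (CPM, counts relative to library size after TMM scaling) were 2918, 2945 and 2949 in the 3 petiole libraries, against 824, 855 and 843 in the 3 leaf libraries. The lowest petiole library thus stood at 3.41 times the highest leaf library, and the means were 2938 ± 16.9 and 841 ± 15.5 CPM (SD, n = 3 each), a ratio of 3.49. These are bulk tissues, in which fewer cells of a type and less RNA per cell cannot be told apart. Enough reads for a test were found at 50 of the loci. Of those 50 loci, 38 (76.0%) were higher in petiole and 3 were lower in petiole by edgeR's quasi-likelihood test at an adjusted p under 0.05, and 9 did not pass. Among all 31473 loci tested, 31.5% were higher in petiole, 31.1% were lower in petiole and 62.6% passed in either direction. The median log2 fold change, petiole minus leaf, was 1.53 over the members tested and 0.01 over all loci tested.

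The differences were large as well as frequent. At least a 2-fold higher level in petiole was estimated for 32 of the members that passed, which 17.2% of all loci tested reached, and at least 8-fold for 11, which 5.66% of all loci reached. Every petiole library lay above every leaf library at 41 of the 50 members, against 35.9% of all loci tested, and the reverse held at 3 members, against 35.4% of all loci. A locus enters the test if it exceeds about 0.0827 CPM in 3 libraries. At 44 members every library exceeded this level, 4 met it in all petiole libraries but not in all leaf libraries and 1 the other way, so the filter fixed the direction of few of the members counted. Members were also split by abundance. FPKM (deposited values, fragments relative to library size and transcript length) were averaged here over the libraries of both organs together. Of the 35 tested members with such a mean of at least 5, 33 were higher in petiole, 1 was lower and 1 did not pass. Of the 15 below this level 5 were higher, 2 were lower and 8 did not pass. The background for loci at or above the level was 41.4% higher and 35.9% lower in petiole, and for loci under it 23.9% higher and 27.5% lower. A high petiole level alone can lift a locus over this cut, and loci under it have fewer reads. Mean FPKM of at least 5 was reached by 37 members in petiole and 24 in leaf. The split is thus not independent of the direction, and no conclusion on abundance is drawn from it.

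**Figure D1:**
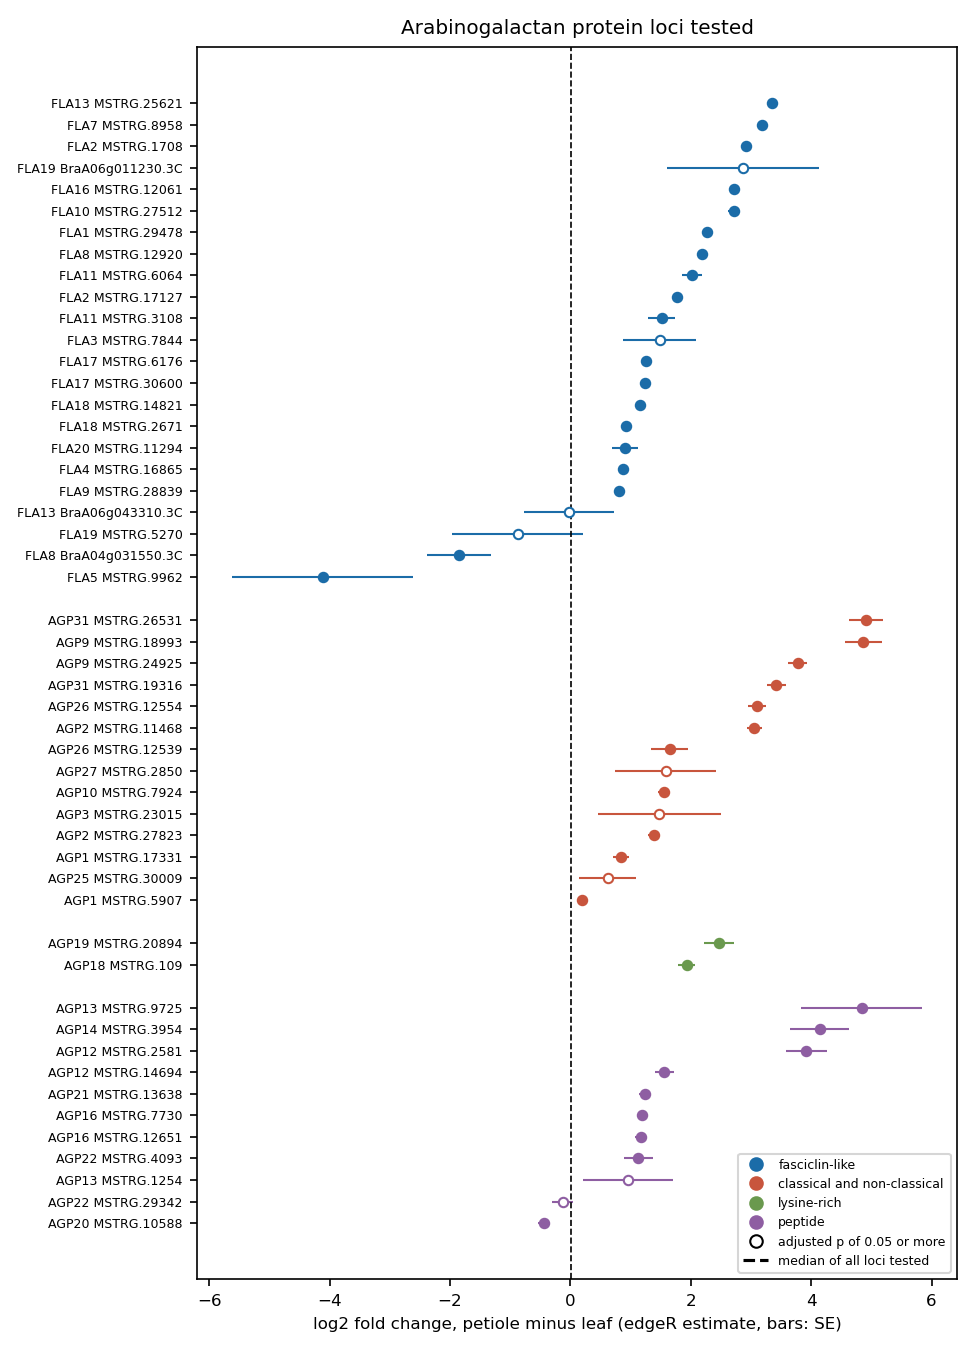
Log2 fold change of each tested locus, petiole minus leaf, with its standard error, in the 4 classes. Filled points passed an adjusted p of 0.05 (edgeR), open points did not, and the dashed line is the median of all loci tested (0.01); 38 filled points lie to the right of 0 and 3 to the left.

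The classes contributed unequally. Fasciclin-like loci summed to 2038, 1969.9 and 1993 CPM in petiole, against 635, 629 and 642 CPM in leaf, a ratio of 3.15. They made up most of the family's counts in both organs, 68.1% in petiole and 75.6% in leaf. The non-classical loci, all of them named AGP30 or AGP31, summed to 483, 561 and 566 CPM in petiole, against 24.5, 35.7 and 36.2 CPM in leaf, which is a ratio of 16.7. Their share of the family's counts was 18.3% in petiole and 3.82% in leaf. The petiole sum came from the AGP31 loci MSTRG.26531 (mean 299.6 CPM) and MSTRG.19316 (mean 237.0 CPM). The AGP30 loci had no counts in petiole, so the ratio describes AGP31 alone. At MSTRG.26531 reads of an overlapping locus on the other strand cannot be told apart. Without the non-classical loci the family still summed to 2401 CPM in petiole and 808 CPM in leaf, a ratio of 2.97. Classical loci summed to 211, 212 and 208 CPM in petiole and 82.9, 95.7 and 80.2 CPM in leaf, a ratio of 2.44. Peptides summed to 170.3, 181 and 164 CPM in petiole and 77.7, 89.8 and 80.2 CPM in leaf, a ratio of 2.08. No class overlapped between the organs in these sums.

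**Figure D2:**
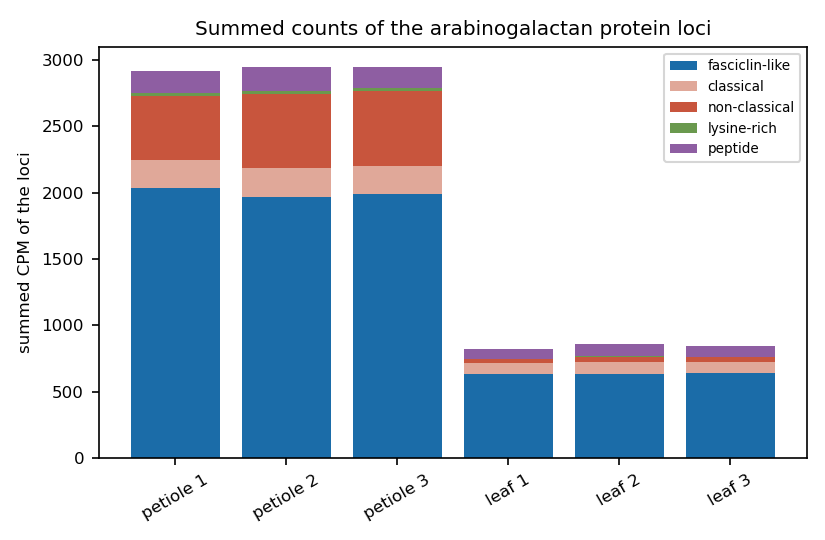
Summed CPM of the 73 loci in each of the 6 libraries, stacked by class, with petiole libraries on the left. The petiole bars reach 2918 to 2949 CPM and the leaf bars 824 to 855 CPM, and the non-classical part has the largest ratio between the organs.

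Among the 34 fasciclin-like loci 23 were tested, of which 17 (73.9%) were higher in petiole, 2 (8.7%) were lower and 4 did not pass. Their median log2 fold change was 1.48. Among all loci tested 31.5% were higher and 31.1% lower, and 35.9% had every petiole library above every leaf library. The largest difference among the well expressed ones was at FLA13 (MSTRG.25621, A09:13149865-13150614, plus strand), which measured 107, 100.2 and 97.4 CPM in the petiole libraries, against 9.84, 9.62 and 10.4 CPM in the leaf libraries. Replicates of each organ lay close together and the organs were about 10.2-fold apart (log2 fold change 3.35 ± 0.063 SE, edgeR adjusted p = 2.93e-11). FLA7 (MSTRG.8958, A03:20974979-20975749, plus strand) had 77.9, 81.5 and 82.5 CPM in petiole, against 7.92, 9.14 and 9.55 CPM in leaf. This is a log2 fold change of 3.18 ± 0.079 (edgeR adjusted p = 1.84e-10), again with no overlap. FLA16, which in Arabidopsis is required for normal stem growth, is at MSTRG.12061 (A04:18248637-18251221, plus strand). It measured 83.1, 83.0 and 86.8 CPM in petiole, against 11.5, 13.5 and 13.4 CPM in leaf (log2 fold change 2.72 ± 0.073, edgeR adjusted p = 3.42e-10). The lowest petiole library was 6.14 times the highest leaf library. FLA10 (MSTRG.27512, A09:37445860-37447131, minus strand) showed the same separation with 49.2, 49.7 and 49.6 CPM in petiole, against 6.75, 7.44 and 8.46 CPM in leaf, a log2 fold change of 2.71 ± 0.090 (edgeR adjusted p = 1.49e-09).

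FLA2 was represented by a pair of expressed loci. At MSTRG.1708 (A01:13861662-13862867, plus strand) the petiole libraries had 139, 134 and 141 CPM and the leaf libraries 18.4, 18.2 and 18.1 CPM, a log2 fold change of 2.92 ± 0.048 (edgeR adjusted p = 1.37e-11). The other, MSTRG.17127 (A06:17262914-17264113, minus strand), had 318, 304 and 314 CPM in petiole, against 92.7, 84.1 and 96.9 CPM in leaf. Per length it was the more abundant copy, at 254 FPKM in petiole and 44.5 in leaf beside 111 and 8.84 FPKM at MSTRG.1708, and had the smaller log2 fold change, 1.77 ± 0.054 (edgeR adjusted p = 8.11e-10). FLA8 at MSTRG.12920 (A05:2665469-2666719, minus strand) had 314, 303 and 297 CPM in petiole, against 65.4, 68.0 and 68.1 CPM in leaf, and a log2 fold change of 2.18 ± 0.041 (edgeR adjusted p = 3.06e-11). FLA1, known from shoot regeneration and early lateral root growth, rose by 2.26 on the log2 scale at MSTRG.29478 (SE 0.045, edgeR adjusted p = 4.19e-11), with 149, 154 and 155 CPM in petiole, against 32.2, 31.0 and 32.2 CPM in leaf.

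The fasciclin-like locus with the highest level per length was also one of the least different. FLA9 (MSTRG.28839, A10:1261893-1262645, minus strand) averaged 289 ± 12.6 FPKM in petiole and 98.7 ± 1.5 FPKM in leaf (SD, n = 3 each), the highest mean FPKM of all members in both organs. In CPM it measured 233, 216 and 219 in petiole, against 127, 128 and 126 in leaf, a log2 fold change of 0.81 ± 0.041 (edgeR adjusted p = 3.82e-08). The groups did not overlap, but the fold of 1.75 was small beside those above. Smaller fold changes that passed were also found at both FLA17 loci (1.25 at MSTRG.6176 and 1.24 at MSTRG.30600), at both FLA18 loci (1.16 at MSTRG.14821 and 0.92 at MSTRG.2671), at FLA20 (0.91 at MSTRG.11294) and at FLA4 (0.88 at MSTRG.16865). FLA4, also called SOS5, is needed for root growth under salt and for seed coat mucilage adherence.

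FLA11 is the member most closely tied to secondary walls, since its loss together with that of FLA12 weakens the stem in Arabidopsis. Both of its loci rose, MSTRG.6064 with 7.63, 7.85 and 7.05 CPM in petiole, against 2.04, 1.88 and 1.64 CPM in leaf, and a log2 fold change of 2.02 ± 0.16 (edgeR adjusted p = 1.55e-06). MSTRG.3108 had 3.67, 2.99 and 3.90 CPM in petiole, against 1.31, 1.14 and 1.24 CPM in leaf, with a log2 fold change of 1.51 ± 0.22 (edgeR adjusted p = 1.62e-04). Markers of xylem and secondary walls moved the same way. Of 12 such loci (secondary wall cellulose synthases, laccases and xylem cysteine proteinases) 10 were tested and all 10 were higher in petiole. Their median log2 fold change was 1.5. Among all loci tested 31.5% were higher and 31.1% lower. A link between these markers and FLA11 was not tested. The list summed to 128, 163 and 149.8 CPM in petiole, against 45.4, 49.3 and 51.6 CPM in leaf, and 1 of its loci was at 0 in every library.

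Lower levels in petiole were found at a pair of fasciclin-like loci with few reads. A second FLA8 locus (BraA04g031550.3C, A04:21390762-21391991, minus strand) had 0.152, 0.380 and 0.359 CPM in petiole, against 0.952, 1.05 and 1.22 CPM in leaf. The petiole libraries all lay under the leaf libraries (log2 fold change -1.85 ± 0.53, edgeR adjusted p = 0.0109), opposite to the abundant FLA8 locus. FLA5 (MSTRG.9962, A03:29669201-29671094, minus strand) had 0, 0.0915 and 0 CPM in petiole, against 0.255, 0.345 and 1.04 CPM in leaf. Converted from deposited count units to fragments, this locus held about 3 fragments in petiole and 45 in leaf, a ratio of 0.0488 with a 95% exact interval of 0.0097 to 0.152 that covers counting error only. Its edgeR adjusted p was 0.0352, and the call was lost without petiole replicate 1, petiole replicate 3, leaf replicate 2 or leaf replicate 3, with log2 fold changes of -4.36 to -3.26 in those fits. FLA19 (BraA06g011230.3C) did not pass although it held 32 fragments in petiole and 3 in leaf, a ratio of 7.81 (95% exact interval 2.44 to 39.8).

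Both tested non-classical loci were higher in petiole, beside 31.5% of all loci tested, and both were among the members above 100 FPKM there. AGP31 carries a proline-rich domain and a cysteine-rich domain that binds pectin, and in Arabidopsis it is expressed in vascular tissue. At MSTRG.26531 (A09:28830870-28832778, plus strand) it measured 269, 310.1 and 320.0 CPM in petiole, against 6.78, 10.8 and 12.3 CPM in leaf. The lowest petiole library was 21.9 times the highest leaf library, and the log2 fold change was 4.91 ± 0.28 (edgeR adjusted p = 1.02e-04). Per length it averaged 287 ± 24.8 FPKM in petiole and 5.72 ± 1.65 FPKM in leaf (SD, n = 3 each), so that it stood next to FLA9 at the top of the family in petiole but far below it in leaf. An unnamed locus on the other strand overlaps it, and as no source says that strand was used in counting, reads of the pair cannot be told apart. A second locus described as AGP31-like (MSTRG.19316, A07:11477275-11478667, plus strand), with no overlapping locus, had 214, 251 and 246 CPM in petiole, against 17.7, 24.9 and 23.9 CPM in leaf (log2 fold change 3.42 ± 0.16, edgeR adjusted p = 6.04e-06). The other 6 non-classical loci were not tested. Among them are all 4 loci named AGP30, which in Arabidopsis acts in roots, and 3 of these 4 had no counts in any library.

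**Figure D3:**
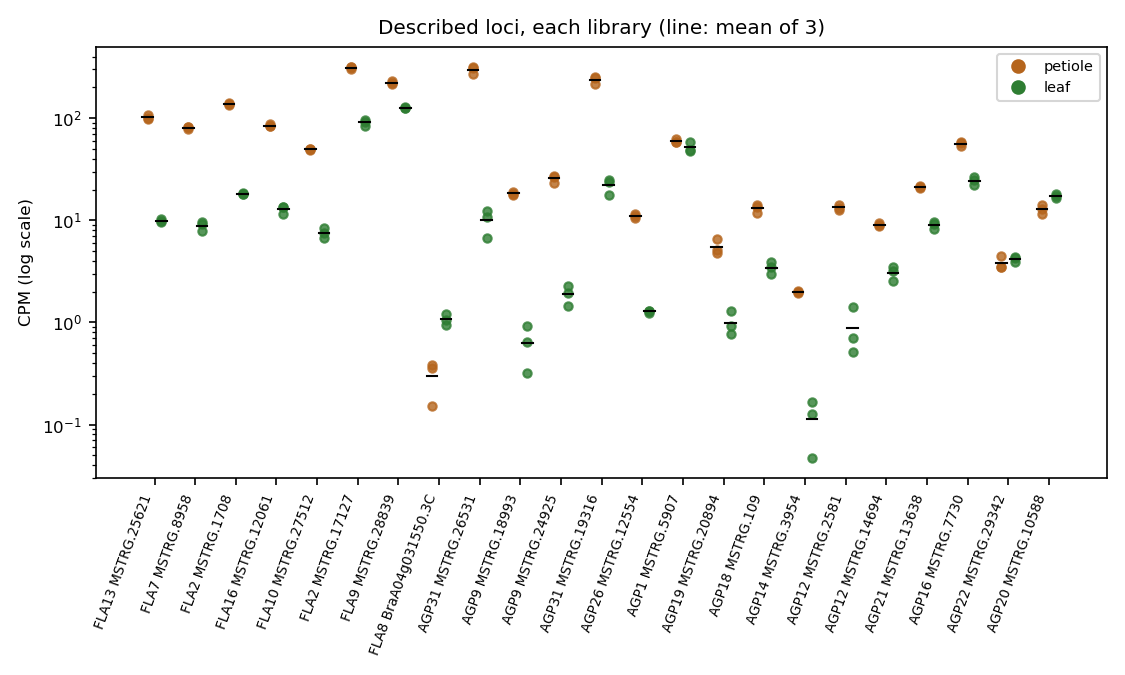
CPM of the members picked by the naming rule that are above 0 in all libraries, on a log axis, with petiole points left of leaf points and a line at each mean of 3 libraries. The organs separate at all loci shown but AGP1 (MSTRG.5907) and AGP22 (MSTRG.29342), and the leaf points are the higher ones at FLA8 (BraA04g031550.3C) and AGP20 (MSTRG.10588).

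Of the 14 classical loci 12 were tested. Of these, 9 (75.0%) were higher in petiole, none was lower, and 3 (AGP3, AGP25 and AGP27, all under 5 FPKM) did not pass. Among all loci tested 31.5% were higher and 31.1% lower. AGP9 gave the largest changes, at a pair of loci that were low in leaf. MSTRG.18993 (A07:4482464-4484936, minus strand) had 19.1, 17.9 and 18.1 CPM in petiole, against 0.638, 0.924 and 0.320 CPM in leaf (log2 fold change 4.87 ± 0.31, edgeR adjusted p = 2.99e-06). MSTRG.24925 (A09:5873725-5875001, plus strand) had 27.4, 23.2 and 26.7 CPM in petiole, against 1.93, 2.26 and 1.45 CPM in leaf (log2 fold change 3.77 ± 0.16, edgeR adjusted p = 1.05e-08). The lowest petiole library was 19.4 times the highest leaf library at MSTRG.18993 and 10.3 times at MSTRG.24925. AGP26 (MSTRG.12554, A05:84968-87002, plus strand) was less abundant per length (6.84 FPKM in petiole and 0.475 in leaf) and also separated without overlap, with 11.0, 11.5 and 10.5 CPM in petiole, against 1.24, 1.31 and 1.30 CPM in leaf (log2 fold change 3.10 ± 0.14, edgeR adjusted p = 1.79e-08). AGP2 rose by 3.05 at MSTRG.11468 and by 1.39 at MSTRG.27823 on the log2 scale, and AGP10 by 1.55 at MSTRG.7924.

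AGP1 was the classical member that differed least between the organs. The more abundant AGP1 locus (MSTRG.5907, A02:30690110-30690502, plus strand) had 62.1, 58.5 and 58.0 CPM in petiole, against 48.2, 58.7 and 48.9 CPM in leaf. The highest leaf library reached above the lower petiole libraries, so the organs overlapped. The log2 fold change was 0.20 ± 0.077 (edgeR adjusted p = 0.0461). The call was lost in 5 of the 6 fits that left out a library, all but the one without leaf replicate 2, with log2 fold changes of 0.15 to 0.21 in those 5. Per length it was nevertheless among the 3 highest members in leaf, with 148 ± 6.17 FPKM in petiole and 77.4 ± 9.56 FPKM in leaf (SD, n = 3 each). The other AGP1 locus, MSTRG.17331, rose by 0.84 on the log2 scale (SE 0.13, edgeR adjusted p = 2.61e-04).

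Both lysine-rich loci with reads were higher in petiole, beside 31.5% of all loci tested, and the third had no counts in any library. AGP19, needed for normal cell division and expansion in Arabidopsis, is at MSTRG.20894 (A07:24103311-24104172, plus strand). It had 5.15, 6.55 and 4.81 CPM in petiole, against 0.775, 0.924 and 1.29 CPM in leaf, a log2 fold change of 2.46 ± 0.25 (edgeR adjusted p = 8.71e-06). AGP18, which in Arabidopsis acts in the selection of the megaspore in the ovule, is at MSTRG.109 (A01:709951-710628, plus strand). It had 11.9, 14.2 and 13.4 CPM in petiole, against 3.47, 3.88 and 2.98 CPM in leaf (log2 fold change 1.93 ± 0.14, edgeR adjusted p = 6.97e-07). Neither locus overlapped between the organs, and at 35.9% of all loci tested every petiole library lay above every leaf library.

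Of the 14 peptide loci 11 were tested, of which 8 (72.7%) were higher in petiole, 1 (9.09%) was lower and 2 did not pass. Their median log2 fold change was 1.2. Among all loci tested 31.5% were higher and 31.1% lower. AGP12 had a pair of tested loci. The locus described as AGP12-like (MSTRG.2581, A01:25894162-25894350, plus strand) had 13.3, 14.1 and 12.7 CPM in petiole, against 0.510, 1.43 and 0.708 CPM in leaf (log2 fold change 3.92 ± 0.35, edgeR adjusted p = 2.53e-05). AGP12 itself (MSTRG.14694, A05:24135553-24135738, minus strand) had 9.31, 9.07 and 8.81 CPM in petiole, against 3.47, 3.19 and 2.55 CPM in leaf (log2 fold change 1.56 ± 0.15, edgeR adjusted p = 7.71e-06). Per length these loci averaged 69.2 and 47.6 FPKM in petiole, and 2.72 and 9.66 FPKM in leaf, so their order differed between the organs. AGP14, known from root hair elongation, is at MSTRG.3954 (A02:6427524-6427706, minus strand) and averaged 10.7 FPKM in petiole and 0.345 in leaf. It had 2.01, 2.05 and 1.96 CPM in petiole, against 0.167, 0.0466 and 0.126 CPM in leaf (log2 fold change 4.14 ± 0.49, edgeR adjusted p = 3.18e-05). The leaf level rests on about 9 fragments, beside 226 in petiole. AGP13 (MSTRG.9725) held about 85 fragments in petiole and 2 in leaf, a ratio of 31.1 with a 95% exact interval of 8.35 to 261 for counting error only, and it passed the test (edgeR adjusted p = 0.00178). AGP14 and this AGP13 locus are among the 4 members that met the filter level in all petiole libraries but not in all leaf libraries. Their entry into the test thus rested on the petiole, and both count among the 11 members at least 8-fold higher there.

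The AGP21 and AGP16 peptides, all above 100 FPKM in petiole, had fold changes of 2.25 to 2.35. AGP21, whose Arabidopsis counterpart affects root hair patterning, is at MSTRG.13638 (A05:9622906-9623085, plus strand) and had 21.7, 21.1 and 20.7 CPM in petiole, against 8.27, 9.15 and 9.62 CPM in leaf (log2 fold change 1.23 ± 0.093, edgeR adjusted p = 9.39e-07). AGP16 (MSTRG.7730, A03:11872775-11873089, minus strand) had 58.5, 56.8 and 52.9 CPM in petiole, against 22.0, 26.6 and 24.7 CPM in leaf (log2 fold change 1.2 ± 0.078, edgeR adjusted p = 2.78e-07). Its mean of 246 ± 13.8 FPKM in petiole and 64.5 ± 6.65 FPKM in leaf (SD, n = 3 each) put it among the 3 highest members of leaf. A second AGP16 locus, MSTRG.12651, gave nearly the same log2 fold change, 1.17 ± 0.097 (edgeR adjusted p = 1.89e-06).

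AGP20 was the only member above 5 FPKM that was lower in petiole by the edgeR test. At MSTRG.10588 (A04:709894-710189, plus strand) it had 11.6, 14.0 and 12.9 CPM in petiole, against 17.2, 18.3 and 16.5 CPM in leaf, without overlap (log2 fold change -0.44 ± 0.099, edgeR adjusted p = 0.00296). The direction depended on the scaling. On log2(FPKM + 1) the same locus was higher in petiole by 0.29 (limma adjusted p = 0.00607), with deposited FPKM of 60.5 ± 5.44 in petiole and 49.1 ± 2.90 in leaf (SD, n = 3 each). That scale moved the median of all loci to 0.47, against 0.01 in the edgeR fit, and AGP20 lay below the median in both fits. Another locus on the opposite strand overlaps it, with the limit given for AGP31. AGP22 at MSTRG.29342 (A10:9546048-9546620, plus strand) had 3.52, 4.51 and 3.46 CPM in petiole, against 4.33, 3.94 and 4.32 CPM in leaf, and the organs overlapped. Its log2 fold change of -0.13 ± 0.18 did not pass (edgeR adjusted p = 0.541). On log2(FPKM + 1) it had the other sign, 0.50, and passed as higher in petiole (limma adjusted p = 0.00252). The remaining AGP22 locus, MSTRG.4093, rose by 1.13 (SE 0.25, edgeR adjusted p = 0.00241). All 38 members higher in petiole by edgeR were also higher by limma on the FPKM values. That limma fit called 58.7% of all loci tested higher in petiole and used the same reads.

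Levels per length showed the same tilt of the family toward the petiole, with the caution that deposited FPKM run higher in petiole for most loci. A mean of at least 5 FPKM was reached by 37 members in petiole and 24 in leaf, and a mean of at least 100 FPKM by 14 members in petiole and 0 in leaf. The order of the members changed between the organs. FLA9, AGP31 (MSTRG.26531) and FLA2 (MSTRG.17127) headed the list in petiole, at 289 ± 12.6, 287 ± 24.8 and 254 ± 6.25 FPKM (SD, n = 3 each). The first pair differed by less than their SD. FLA9, AGP1 (MSTRG.5907) and AGP16 (MSTRG.7730) headed it in leaf, at 98.7 ± 1.5, 77.4 ± 9.56 and 64.5 ± 6.65 FPKM.

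**Figure D4:**
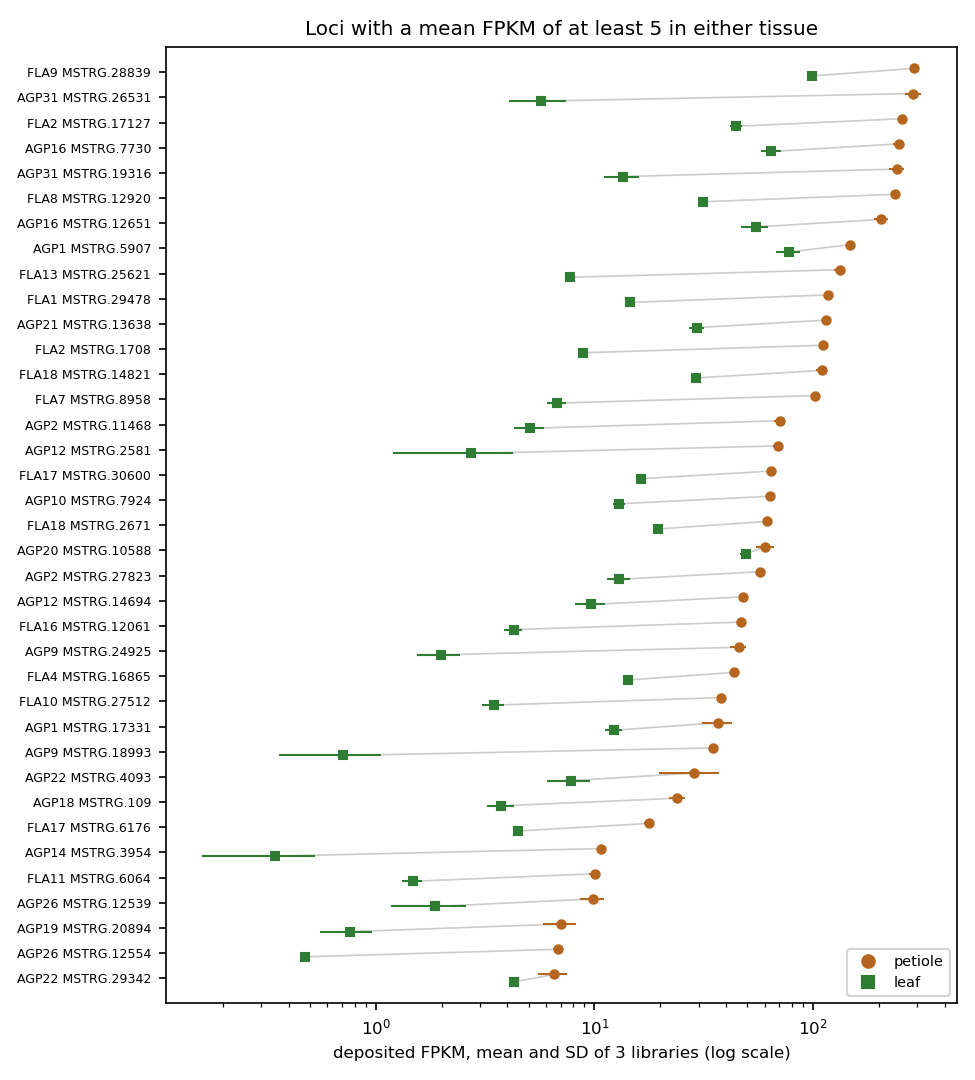
Mean deposited FPKM with its SD over 3 libraries, on a log axis, for the members with at least 5 FPKM in either organ, petiole as circles and leaf as squares. All members shown lie further right in petiole on this scale, by a wide margin at AGP31 and AGP9 and a narrow one at AGP20 and AGP22.

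Copies of a name were compared by direction. *B. rapa* retains several copies of many Arabidopsis genes, and 16 names had at least 2 tested loci. For 11 of these names all tested loci were higher in petiole. Taken singly, 76.0% of the tested members and 31.5% of all loci tested were. These shares of single loci cannot be set against a count of names, since a name needs all its loci to pass. Whether copies of a name were more alike than other members was not tested. The exceptions were FLA8, FLA13, FLA19, AGP13 and AGP22. At FLA13 the second locus, BraA06g043310.3C, was near the detection limit, with 0.291, 0.246 and 0.404 CPM in petiole, against 0.402, 0.252 and 0.301 CPM in leaf and a log2 fold change of -0.020 ± 0.75 that did not pass (edgeR adjusted p = 0.984) and changed sign between settings. In each of FLA8 and FLA13 an abundant copy rose in petiole while a rare copy did not. Reads that fit more than 1 copy may have been assigned to either, since the handling of such reads is not stated.

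**Figure D5:**
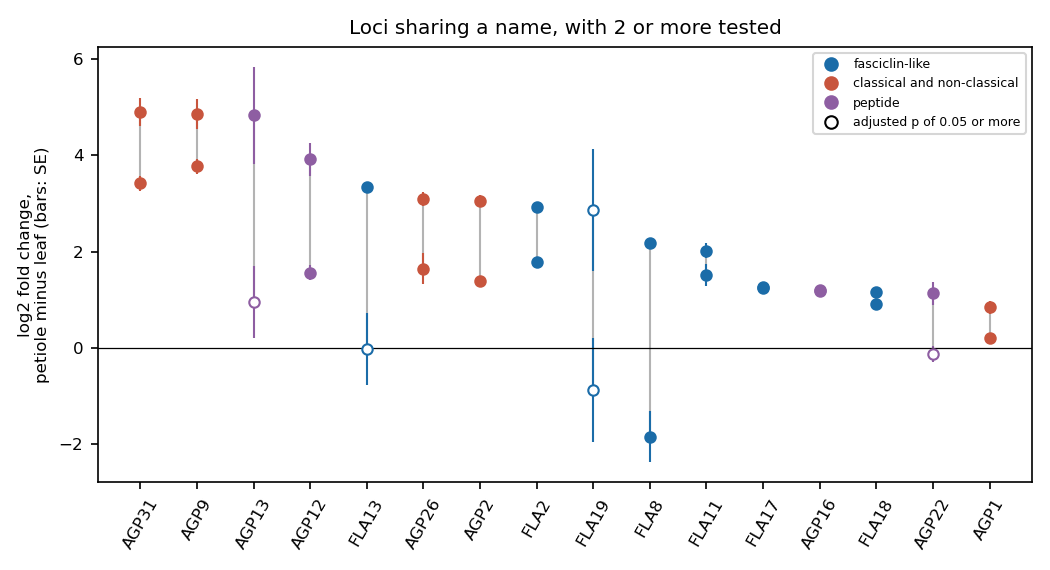
Log2 fold change, petiole minus leaf, with its standard error, for the 16 names with at least 2 tested loci, joined by a line within a name. Open points did not pass an adjusted p of 0.05 (edgeR); FLA8 is the name whose copies passed in opposite directions.

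Of the 73 loci 23 (31.5%) were not tested, 19 of them (26.0% of the family) without a count in any library and 4 with at most 19 count units in a library. The shares over all 49200 loci were near these, with 36.0% not tested and 26.9% without a count. The members without a count comprise 10 fasciclin-like, 6 classical or non-classical, 1 lysine-rich and 2 peptide loci. All 3 loci named FLA14 and both named AGP23 are among them, and in Arabidopsis these genes are known from pollen. FLA3, likewise a pollen gene there, was tested at MSTRG.7844 with 0.941, 0.619 and 0.770 CPM in petiole, against 0.285, 0.149 and 0.398 CPM in leaf, and did not pass (edgeR adjusted p = 0.0539). Of 44 loci described as pollen-specific or as pollen polygalacturonases, 20 were at 0 in every library, and of 21 tested 6 (28.6%) were higher in petiole, 6 (28.6%) were lower and 9 did not pass, close to the 31.5% and 31.1% of all loci tested. Their summed CPM was 349, 341 and 342 in petiole, against 217, 215 and 219.6 in leaf.

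The table's GO terms place 42 of the 73 members, of 63 with any GO entry, in an anchored membrane component. Of the 32 tested members with this term 22 (68.8%) were higher in petiole, and of the 18 without it 16 (88.9%) were. Among all loci tested 31.5% were. The 18 include loci with no GO entry at all, such as AGP10 and both tested AGP9 loci, so lacking the term does not mean lacking an anchor. Of the AGP2 loci, MSTRG.27823 carries the term and MSTRG.11468 has no GO entry. For the machinery of the lipid anchor itself, the share higher in petiole was near the background. Of 15 loci for GPI assembly or attachment 13 were tested, 5 (38.5%) were higher in petiole, beside 31.5% of all loci tested, none was lower, beside 31.1%, and 8 did not pass, with a median log2 fold change of 0.37. A GPI-anchor transamidase-like locus (MSTRG.28465) had 9.33, 7.95 and 6.24 CPM in petiole, against 4.79, 4.26 and 4.23 CPM in leaf (log2 fold change 0.82 ± 0.17, edgeR adjusted p = 0.00163). This was the larger of the changes among its loci above 5 FPKM, and GPI mannosyltransferase 3 (MSTRG.3439) followed with 18.9, 21.6 and 16.7 CPM in petiole, against 12.3, 15.3 and 13.1 CPM in leaf, and a log2 fold change of 0.49 ± 0.12 (edgeR adjusted p = 0.00453).

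Enzymes of the kinds that build the sugar chains were higher in petiole more often than lower. They were matched by description alone, so some may act on other glycans or wall proteins. Of 57 loci for backbone hydroxylation and glycan synthesis 47 were tested, 28 (59.6%) were higher in petiole, 4 (8.51%) were lower and 15 did not pass, with a median log2 fold change of 0.69. Among all loci tested 31.5% were higher and 31.1% lower, with a median of 0.01. Counts by enzyme type follow. Prolyl 4-hydroxylases, which make the hydroxyproline, had 8 higher and 2 lower of 14 tested. Hydroxyproline O-galactosyltransferases, which attach the first galactose, had 5 higher and 0 lower of 11 tested, with a median of 0.04. Beta-1,3-galactosyltransferases had 5 higher and 1 lower of 10 tested, with a median of 0.86. The beta-1,6-galactosyltransferase and the fucosyltransferase, with 1 locus each, were both higher. Glucuronosyltransferases of the GlcAT14 type, which cap side chains, had 8 higher and 1 lower of 10 tested, with a median of 1.08. Hydroxyproline O-galactosyltransferase GALT4 gave the largest changes by the naming rule. Its copy MSTRG.26692 had 25.5, 24.6 and 26.5 CPM in petiole, against 3.18, 2.13 and 1.81 CPM in leaf (log2 fold change 3.43 ± 0.19, edgeR adjusted p = 2.67e-07). MSTRG.19433 had 17.6, 19.2 and 17.4 CPM in petiole, against 4.20, 4.64 and 4.36 CPM in leaf (log2 fold change 2.04 ± 0.10, edgeR adjusted p = 4.38e-08).

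Supply of arabinose as a nucleotide sugar is shared with other wall polymers. Of 17 loci 13 were tested, of which 8 (61.5%) were higher in petiole, 1 (7.69%) was lower and 4 did not pass, beside 31.5% higher and 31.1% lower among all loci tested, with a median log2 fold change of 1.23. UDP-arabinopyranose mutases, which convert the sugar to the ring form used in these chains, accounted for 7 of the 8. UDP-arabinose 4-epimerases, which make UDP-arabinose from UDP-xylose, did not lean to either organ. Of 5 tested 1 was higher in petiole, 1 was lower and 3 did not pass, with a median of -0.19. The lower locus, BraA09g020600.3C, had a log2 fold change of -4.86 (SE 0.931, edgeR adjusted p = 0.00237). The higher epimerase locus (MSTRG.13277) had 187, 191 and 183 CPM in petiole, against 7.32, 4.08 and 5.65 CPM in leaf. This was a log2 fold change of 5.04 ± 0.24 (edgeR adjusted p = 2.23e-05). It was next to the 4.91 ± 0.28 of AGP31, within the standard errors. A mutase 2-like locus (MSTRG.3473) had 49.6, 52.6 and 57.9 CPM in petiole, against 6.75, 5.48 and 7.79 CPM in leaf (log2 fold change 3.00 ± 0.13, edgeR adjusted p = 3.11e-08).

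Of 41 loci for glycan breakdown 25 were tested, 11 (44.0%) were higher in petiole, 10 (40.0%) were lower and 4 did not pass, with a median log2 fold change of 0.10. All loci tested likewise split evenly, at 31.5% higher and 31.1% lower. Among the beta-galactosidases, which also act on other wall polymers, 9 of 19 tested were higher and 7 lower, and of 4 alpha-L-arabinofuranosidases 1 was higher and 3 were lower. Beta-galactosidase 5 (MSTRG.29138) had 82.5, 82.1 and 79.1 CPM in petiole, against 9.20, 10.9 and 10.5 CPM in leaf (log2 fold change 2.99 ± 0.074, edgeR adjusted p = 1.84e-10). Beta-galactosidase 4 (MSTRG.6928) was the opposite, with 16.8, 16.3 and 14.6 CPM in petiole, against 261, 249.5 and 272 CPM in leaf (log2 fold change -4.03 ± 0.064, edgeR adjusted p = 1.19e-11).

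The tissue labels were checked against markers. Chlorophyll-binding proteins and the Rubisco small subunit, 29 loci, summed to 368, 402 and 382 CPM in petiole and 4491, 4275 and 4660.4 in leaf. Of 26 tested none was higher in petiole, 25 (96.2%) were lower and 1 did not pass, beside 31.1% lower among all loci tested. Phloem markers, 31 loci of which 8 were at 0 throughout, summed to 212, 217 and 209 CPM in petiole, against 339.7, 334 and 348 CPM in leaf, with 5 (27.8%) higher in petiole, 8 (44.4%) lower and 5 not past the threshold of 18 tested, beside 31.5% higher and 31.1% lower among all loci tested. The part of these cell types in the differences of the family was not tested. Total estimated counts per library were 120805715 to 132861243 in petiole and 111518411 to 121161682 in leaf, and 1 fragment was worth 3.77 to 3.87 of these units.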

How the data were processed

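RNA was measured in 3 petiole and 3 leaf libraries, grouped by the tissue in the labels. The authors deposited 1 table that holds, per the file headers, estimated counts and FPKM for each locus and library. The estimated counts were whole numbers in units of about 3.78 per fragment. Deposited FPKM are scaled to length and library, with 0.0001 where the count was 0. Bowtie 0.12.2 and the mouse build mm8 stand in the submitters' processing notes without a role. The plant genome build, the counter and its use of strand are not stated in those sources. Coordinates are those of the table. Loci without a gene name (2843) stayed in the library sizes and tests.

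Counts were compared by the quasi-likelihood test of edgeR 4.0.16 in R 4.3.3, with TMM scaling (factors 1.095 to 1.137 in petiole, 0.8849 to 0.9249 in leaf), filterByExpr, tissue as the only term and a robust fit. All p-values are two-sided and were adjusted by Benjamini-Hochberg over the 31473 loci that entered the test, with 0.05 as threshold, and the fit was tested on simulated data. The biological coefficient of variation was 26.5%. CPM compare organs and FPKM compare loci. Intervals cover counting error only. Alternatives were DESeq2 1.42.0 size factors, no filter, limma 3.58.1 on log2(FPKM + 1) and log2(FPKM + 0.1) and after removing loci whose mean FPKM was under 1, counts divided by the units of a fragment, a replicate block, and leaving out each library.

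The family, its related lists (glycan synthesis, UDP-arabinose supply, glycan breakdown, GPI anchor) and marker lists (xylem, phloem, pollen, mesophyll) were matched by description and chosen with earlier results of these data known. Described in every library were, per class, up to 5 members past the threshold with the largest change and at least 5 FPKM, all members lower in petiole, the 3 highest in FPKM per organ, members above 5 FPKM that did not pass, and the 2 largest changes of each related list. FLA1, FLA8 (MSTRG.12920), FLA11, FLA3, FLA19, AGP13, the rare FLA13 copy and the loci given by fold alone were added after their values were seen. Loci that merge several genes were left out. No sequences are shown.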

Additional observations from a re-analysis of the deposited data

How the results depend on the processing

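The count of members higher in petiole stayed within 1.5 times of 38 in every alternative run. Of the 50 tested members 48 kept their direction and side of the threshold with DESeq2 and 50 without a filter. Limma on FPKM moved the whole comparison: 18478 loci were higher and 5078 lower in petiole with a pseudocount of 1, 18503 and 5078 with 0.1, and 15791 and 3964 with a mean FPKM of at least 1. The median log2 fold change of all loci was then 0.468, 0.698 and 0.594, against 0.018 with DESeq2, 0.025 without a filter, 0.00 with counts divided by the units of a fragment, and between -0.001 and 0.026 when a library was left out. The median of the members was 1.93, 2.05 and 2.17 in the 3 limma fits, 1.54 with DESeq2, 1.56 with a replicate block, 1.55 with divided counts and 1.46 to 1.60 when a library was left out. Members lower in petiole numbered 0 with limma at a mean FPKM of at least 1. That cut removed both fasciclin-like members lower in petiole, so their absence from that fit was fixed in advance. With limma on log2(FPKM + 1) without the cut they stayed lower, at -0.294 (FLA8, BraA04g031550.3C, limma adjusted p = 0.0263) and -0.359 (FLA5, MSTRG.9962, limma adjusted p = 0.0424). Fasciclin-like members lower in petiole numbered 1 with the replicate block, 1 with divided counts and 1 to 2 when a library was left out. Peptides lower in petiole numbered 0 in all 3 limma fits.

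AGP20 (MSTRG.10588) reversed to 0.294, 0.299 and 0.294 in the limma fits, and the AGP22 locus MSTRG.29342 to 0.502, 0.586 and 0.502. The rare FLA13 copy (BraA06g043310.3C) reversed to 0.177 and 0.552 with limma, and to values up to 0.185 when a library was left out (-0.241 to 0.185 over these fits). The cause was not tested. Petiole and leaf libraries of the same replicate number showed no shared deviation (correlations 0.014, -0.010 and 0 for numbers 1, 2 and 3). With 3 libraries per organ this cannot settle whether the numbers pair plants, which the labels do not say. With the number as a block, the calls of AGP1 (MSTRG.5907, log2 fold change 0.20, edgeR adjusted p = 0.051) and FLA5 (MSTRG.9962, -5.47, edgeR adjusted p = 0.0535) were lost and no other call among the members changed. Depth limits the loci with few fragments, where a difference may not be detectable.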

Other observations

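A pair of loci that merge an arabinogalactan protein gene with a neighbour were not counted in the family, since their reads cannot be assigned to either gene. MSTRG.10081 joins an AGP9-like gene with a cyclin-D3-1-like gene and had 104, 103 and 106 CPM in petiole, against 80.1, 70.5 and 67.6 CPM in leaf. MSTRG.10869 joins FLA15 with the gene of the chloroplast RNA-binding protein CP33 and had 179, 177 and 185 CPM in petiole, against 51.6, 49.6 and 55.1 CPM in leaf. Both were higher in petiole, with log2 fold changes of 0.52 ± 0.062 (edgeR adjusted p = 3.65e-05) and 1.79 ± 0.050 (edgeR adjusted p = 4.20e-10). A pollen-specific locus described as BAN102, whose description spells the family name without its last letter, had no counts in any library.

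Which library of an organ was the highest varied by class. Of the 11 tested peptides 3, 7 and 1 had their highest petiole level in petiole replicates 1, 2 and 3, and 4, 5 and 2 their highest leaf level in leaf replicates 1, 2 and 3. For the 14 tested classical and non-classical members these counts were 4, 7 and 3 in petiole and 3, 9 and 2 in leaf, and for the 23 fasciclin-like members 8, 5 and 10 in petiole and 9, 5 and 9 in leaf. AGP31 (MSTRG.26531) and its AGP31-like relative (MSTRG.19316) were both lowest in replicate 1 of each organ, at 269 and 214 CPM in petiole and 6.78 and 17.7 CPM in leaf. These counts were noticed in the data and were not tested.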
